A study of Mus musculus with 10 samples.

Results

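The genes described here are 33 genes of glycolysis and of the response to low oxygen, taken by symbol from a count table of 24385 gene symbols. They fall into 4 role groups, which are 5 transporters and flux regulators, 16 glycolytic enzymes, 11 targets of the hypoxia-inducible factor (HIF) outside glycolysis, and Hif1a itself. The cells were bone marrow-derived dendritic cells, antigen-presenting cells grown from marrow of wild-type female C57BL/6 mice aged 8 to 10 weeks, grown in GM-CSF (20 ng/mL) over 7 days. Immature cells that did not adhere, collected on day 6, received AMLE, an extract of apple mango leaf, at 400 µg/mL, or 0.04% DMSO as vehicle, for 24 h. Each group had 3 RNA libraries, and 2 libraries of ATAC sequencing, in which a transposase inserts adapters into open chromatin. Whether a replicate is a mouse, a culture or a repeat library is not in the labels, and the p-values cover the spread between libraries only, which may be technical. The oxygen level of the cultures is not given in the sources used here.

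Glycolysis splits glucose into pyruvate in the cytosol, and lactate dehydrogenase and lactate exporters carry the surplus out of the cell. HIF-1 is a transcription factor whose alpha subunit is hydroxylated by prolyl hydroxylases (the Egln enzymes) when oxygen is present, then bound by Vhl and degraded. Because this control acts on the protein, the mRNA of Hif1a need not follow HIF activity. Activated dendritic cells are known for a raised glycolytic rate.

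The count totals lay between 26010455 and 34208286 per RNA library. Markers of dendritic cells were present in both groups. Of their 10 genes 4 rose and 2 fell. Flt3, Ccr7, Cd86 and Zbtb46 rose 4.81-, 2.74-, 2.73- and 1.84-fold. H2-Ab1 fell 1.62-fold (edgeR adjusted p = 0.041), though the groups overlapped. Cd209a fell 30.6-fold, to a mean of 0.211 CPM (read counts scaled to a common library size) in AMLE. In DMSO it was low and uneven, at 2.99, 3.27 and 13.4 CPM in replicates 1 to 3. The invariant chain gene of MHC class II, Cd74, the most abundant, was not called. It stood at 3931 ± 885 CPM (SD, n = 3) in DMSO and 3205 ± 322 in AMLE, and the groups overlapped. The labels name no purification of the cells beyond the non-adherent fraction, and genes of other cell types were measured in them. In the counts of this paragraph, called by edgeR at an adjusted p below 0.05, the background is 23.0% of all 13075 tested genes higher and 25.6% lower. Macrophage markers fell in 7 of 12 genes and rose in 1, with summed levels of 2044 to 2385 CPM in DMSO and 1180 to 2049 in AMLE. Of the granulocyte markers, of which S100a9 was the most abundant (7746 ± 1919 CPM in DMSO, 5699 ± 1090 in AMLE, SD, n = 3, not called), 8 of 11 tested genes fell and 0 rose, from 13696 to 21788 CPM in DMSO to 9104 to 12645 in AMLE. Mast cell and basophil markers rose in 4 of 8 genes, with sums of 259 to 422 and 401 to 764 CPM. All 12 genes of dividing cells fell, from 1709 to 1914 CPM in sum to 436 to 588. Lymphocyte and erythroid markers summed to at most 30.6 and 2.16 CPM in any library, and the erythroid globin genes Hbb-bs and Hba-a1 were at 0 in all libraries. In bulk samples, fewer cells of a type and less RNA per cell cannot be told apart. The part of this shift in cell markers and dividing cells in the results below was not tested.

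The deposited data give ATAC peaks at the starts of the genes, and the 250 bases before the start site are shown for 7 members. Whether these sequences have a part in the RNA changes was not tested. The sequences are RefSeq's, on build GRCm38.p6 (the build called mm10), written 5′ to 3′ along the gene. Capitals mark the HIF binding core ACGTG or GCGTG on either strand, where CACGT and CACGC are the cores read on the other strand, and CACGTG holds the core on both. The first 4 are HIF targets that rose after AMLE and had a peak at the start in all 4 ATAC libraries. Ak4 and Pfkl also rose but had no peak there, and Ldha had the most cores of any member in the window searched, of which the stretch before the start shows 3, and was not called in RNA.
Ddit4, chr10:59951771-59952020, minus strand: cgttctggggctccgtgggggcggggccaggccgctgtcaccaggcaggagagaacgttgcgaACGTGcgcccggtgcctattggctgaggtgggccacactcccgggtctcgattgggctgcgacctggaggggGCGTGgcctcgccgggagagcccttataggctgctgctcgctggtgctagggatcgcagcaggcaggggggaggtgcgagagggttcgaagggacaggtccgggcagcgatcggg
Bnip3, chr7:138909507-138909756, minus strand: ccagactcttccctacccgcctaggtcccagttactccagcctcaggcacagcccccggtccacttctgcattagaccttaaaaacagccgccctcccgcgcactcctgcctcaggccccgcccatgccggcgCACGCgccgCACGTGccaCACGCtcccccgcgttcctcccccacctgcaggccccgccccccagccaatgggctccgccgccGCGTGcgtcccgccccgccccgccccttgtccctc
Egln3, chr12:54203875-54204124, minus strand: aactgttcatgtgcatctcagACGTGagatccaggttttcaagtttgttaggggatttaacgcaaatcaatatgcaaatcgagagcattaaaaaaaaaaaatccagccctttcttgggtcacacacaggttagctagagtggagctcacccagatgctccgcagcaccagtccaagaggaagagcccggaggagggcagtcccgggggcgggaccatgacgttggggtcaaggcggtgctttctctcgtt
P4ha1, chr10:59323046-59323295, plus strand: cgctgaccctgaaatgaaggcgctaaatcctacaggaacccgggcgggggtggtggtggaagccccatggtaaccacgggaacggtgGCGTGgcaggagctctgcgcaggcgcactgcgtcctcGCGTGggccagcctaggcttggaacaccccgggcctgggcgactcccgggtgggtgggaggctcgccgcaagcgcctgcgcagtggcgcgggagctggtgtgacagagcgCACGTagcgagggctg
Ak4, chr4:101419039-101419288, plus strand: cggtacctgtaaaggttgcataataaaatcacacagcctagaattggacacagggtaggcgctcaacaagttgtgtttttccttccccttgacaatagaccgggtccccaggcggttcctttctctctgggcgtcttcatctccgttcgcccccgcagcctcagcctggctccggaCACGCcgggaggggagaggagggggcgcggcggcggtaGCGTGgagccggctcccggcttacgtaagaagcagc
Pfkl, chr10:78009808-78010057, minus strand: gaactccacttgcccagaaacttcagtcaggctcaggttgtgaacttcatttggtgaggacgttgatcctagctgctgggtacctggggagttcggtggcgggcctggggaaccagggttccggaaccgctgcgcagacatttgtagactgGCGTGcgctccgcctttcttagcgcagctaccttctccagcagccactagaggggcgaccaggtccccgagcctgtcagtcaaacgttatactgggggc
Ldha, chr7:46845554-46845803, plus strand: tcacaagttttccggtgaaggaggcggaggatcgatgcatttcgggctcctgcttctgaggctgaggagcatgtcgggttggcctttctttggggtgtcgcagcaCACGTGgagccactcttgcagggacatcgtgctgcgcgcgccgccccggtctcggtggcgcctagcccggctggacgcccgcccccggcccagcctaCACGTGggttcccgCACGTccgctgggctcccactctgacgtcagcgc

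The window from 250 bases before to 50 after the start was searched for both cores on both strands, with overlapping matches counted once. Of 30 members with a start in the table, 28 held at least 1 core in the window of at least 1 start, among them 9 of 9 HIF targets and 14 of 16 glycolytic enzymes. The share was 46.7% of all genes in the table and 66.2% of the genes tested for expression. Counted by window, 83.0% of the 47 member windows held a core, beside 67.2% of the 7357 windows whose CpG count lay between the lower and the upper quartile of the members. Windows of 1 gene can overlap and hold the same cores, as those of Ak4 starting at 101419039, 101419062 and 101419071 do. The 30 members have 47 windows and the 10416 tested genes 13215, and more windows give a gene more occasions to hold a core. The first start of Ldha held 5 separate cores, Bnip3 held 4, Ddit4 2 and Egln3 1. A match is a description of letters and not a binding site. Gpi1 and Tpi1 held none in this window.

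Across the set, 18 of the 32 tested members rose after AMLE and 1 fell (edgeR, adjusted p below 0.05), where 23.0% of all 13075 tested genes were called higher and 25.6% lower. All 11 HIF targets outside glycolysis rose, with a median log2 fold change (AMLE minus DMSO) of 0.66. In contrast, 4 of 15 tested glycolytic enzymes rose and 1 fell, with a median of 0.15. The median over all tested genes was −0.01. In the group of transporters and flux regulators, 3 of 5 rose and 0 fell (0.40), and Hif1a was not called. At least 2-fold changes were all among the HIF targets, with 4 members higher (5.52% of all tested genes) and 0 lower (4.40%). The libraries of the groups overlapped in 11 members (40.3%). These groups are described by counts and medians, without a test of one group against the other. They were set by role, so a glycolytic enzyme can also be a HIF target, as Hk2 is known to be. The counts come from a fit that does not pair the replicates. With the replicate number as a block, Hk2, Aldoc and Slc2a3 were also called higher. In that fit 26.3% of all tested genes were called higher and 29.2% lower.

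**Figure D1:**
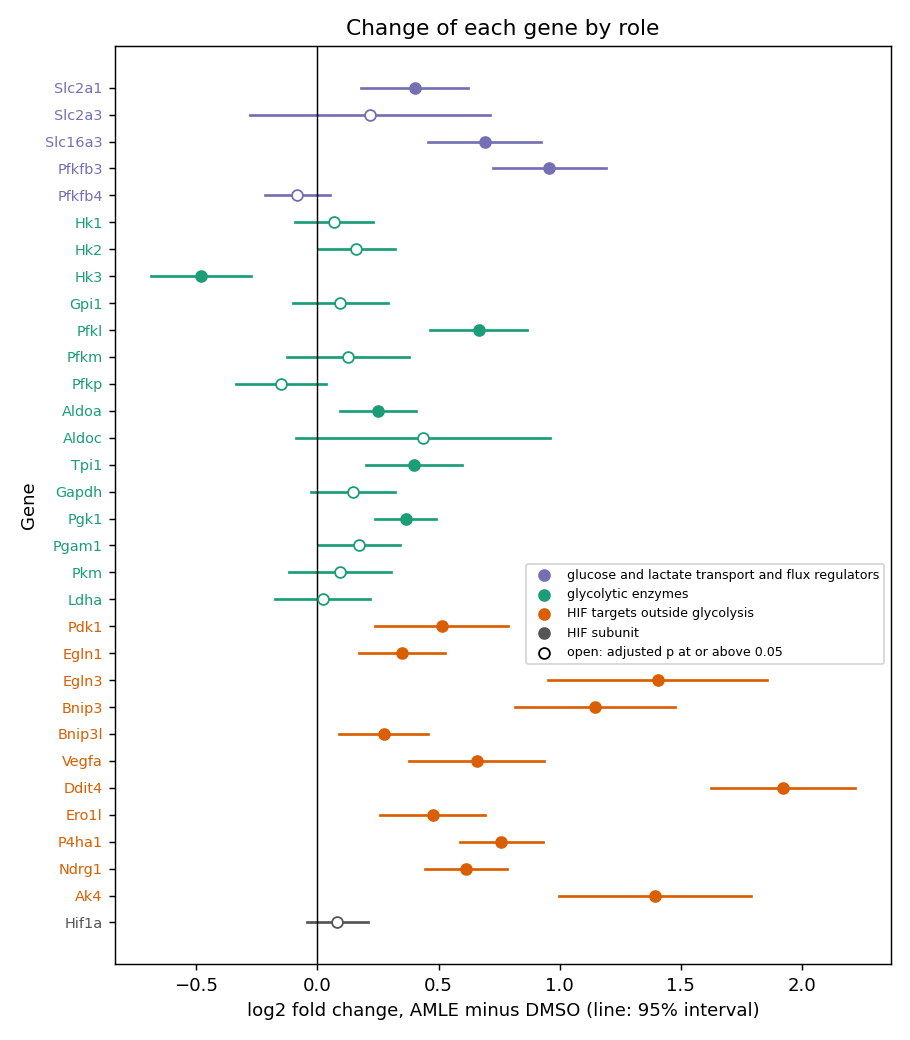
Log2 fold change (AMLE minus DMSO, edgeR) of the 32 tested genes with 95% intervals, coloured by role group, filled where the adjusted p was below 0.05. The 11 HIF targets lie between 0.27 and 1.92 and all are filled, while 10 of 15 enzymes are open.

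The HIF targets with the largest changes act on signalling, oxygen sensing and mitochondria. Ddit4 (REDD1, chromosome 10, 59949675 to 59951770), an inhibitor of mTORC1 signalling, stood at 14.1, 15.4 and 10.9 CPM in DMSO replicates 1 to 3 and at 54.3, 48.2 and 50.8 CPM in the AMLE replicates. Every AMLE library was above every DMSO library, as for 20 of the 32 tested members and 28.4% of all tested genes. Ddit4 rose 3.79-fold (log2 fold change 1.92 ± 0.13, SE; edgeR adjusted p = 8.3e-05). Egln3 (chromosome 12, 54178981 to 54203874), the prolyl hydroxylase most inducible by hypoxia, had 64.9, 59.9 and 41.4 CPM in DMSO and 171, 148 and 121 CPM in AMLE. Both replicates numbered 3 were the lowest of their group, and the rise was 2.65-fold (1.41 ± 0.19, edgeR adjusted p = 0.0013). Its relative Egln1, the main oxygen sensor of normoxic cells, rose by less, from 55.1 ± 0.207 to 70.2 ± 7.24 CPM (SD, n = 3), with a log2 fold change of 0.35 ± 0.08 (edgeR adjusted p = 0.0079).

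Ak4 (chromosome 4, 101416478 to 101467771), an adenylate kinase of the mitochondrial matrix, had 8.71, 9.27 and 8.03 CPM in DMSO and 22.0, 18.1 and 28.4 CPM in AMLE. All AMLE libraries were above the DMSO libraries, and the rise was 2.63-fold (1.40 ± 0.17, edgeR adjusted p = 7.3e-04). Bnip3 (chromosome 7, 138890836 to 138909506), a receptor for the removal of mitochondria by autophagy, stood at 23.9, 23.5 and 28.9 CPM in DMSO and 57.8, 46.4 and 64.8 CPM in AMLE. It rose 2.21-fold (1.15 ± 0.14, edgeR adjusted p = 8.2e-04), with all AMLE libraries above the DMSO libraries. Bnip3l, which encodes the related receptor NIX, rose 1.21-fold (0.27 ± 0.08, edgeR adjusted p = 0.023). That call did not hold without DMSO replicate 1, 2 or 3 (edgeR adjusted p = 0.0651 to 0.0696).

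Pdk1, one of the kinases that switch off pyruvate dehydrogenase, was at 41.5, 41.0 and 45.6 CPM in DMSO and at 59.8, 51.9 and 71.4 CPM in AMLE. The groups did not overlap and Pdk1 rose 1.43-fold (0.51 ± 0.12, edgeR adjusted p = 0.0098). Its relatives Pdk3 and Pdk2 stand outside the set and were picked after their values were seen. Pdk3 fell from a mean of 73.7 to 52.1 CPM (−0.50, edgeR adjusted p = 0.0030). Pdk2 rose from 8.15 to 11.0 CPM (0.44, edgeR adjusted p = 0.047). P4ha1, a collagen prolyl hydroxylase subunit, was at 71.0, 65.9 and 70.0 CPM in DMSO and 120, 105 and 126 CPM in AMLE. It rose 1.69-fold (0.76 ± 0.07), with no overlap of the groups. Vegfa, the main growth factor of blood vessels, was at 46.7, 45.2 and 40.7 CPM in DMSO and 67.0, 60.2 and 82.1 CPM in AMLE. It also rose without overlap, 1.58-fold (0.66 ± 0.12, edgeR adjusted p = 0.0038). Ndrg1, a stress-inducible gene of differentiation, was at 72.0, 70.2 and 78.7 CPM in DMSO and 107, 108 and 123 CPM in AMLE, and rose by 0.61 ± 0.07 on the log2 scale. Ero1l, the oxidase of disulfide formation in the endoplasmic reticulum (now named Ero1a), was at 127, 119 and 103 CPM in DMSO and 172, 166 and 148 CPM in AMLE. Ero1l had the highest mean CPM of the HIF targets over the 6 libraries together, though not in each group. It rose by 0.48 ± 0.09 on the log2 scale, and here AMLE replicate 3 was the lowest of its group, while it was the highest for Ak4, Bnip3, Pdk1, P4ha1, Vegfa and Ndrg1.

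**Figure D2:**
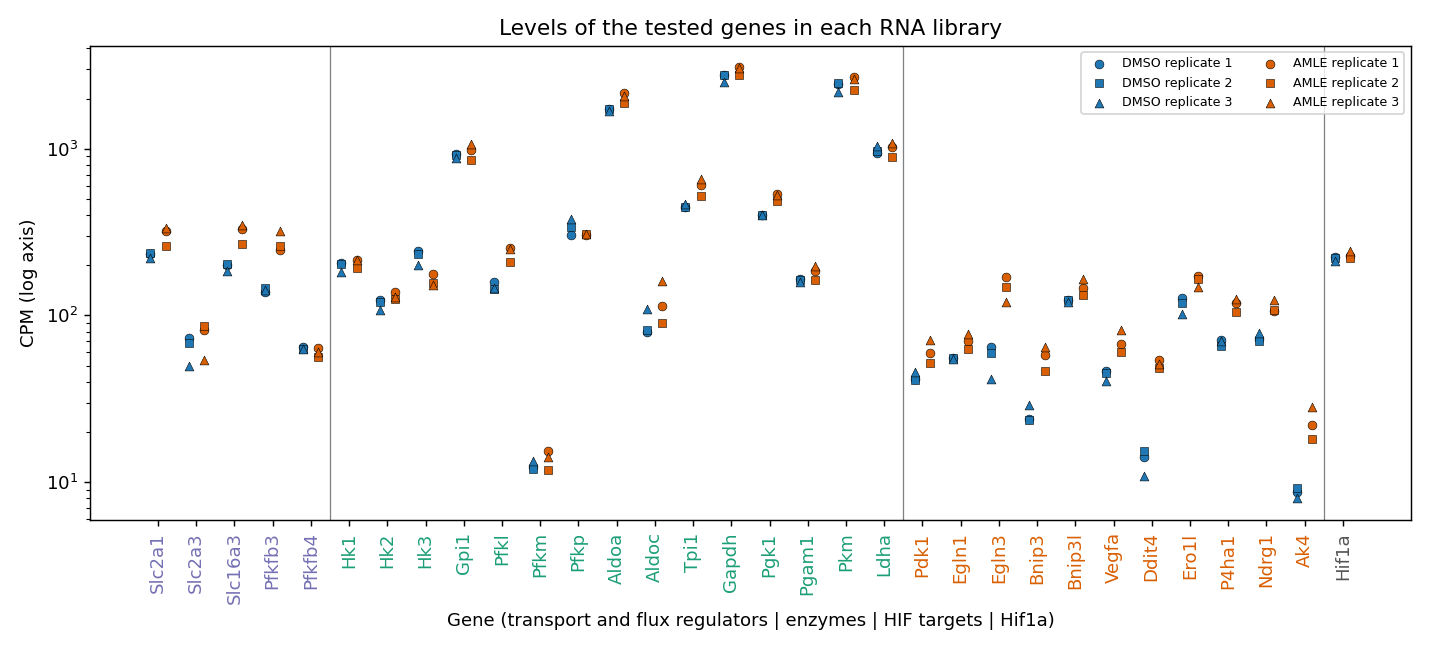
CPM on a log axis of the 32 tested genes in each of the 6 RNA libraries, with DMSO in blue and AMLE in orange and 1 symbol per replicate number. For every HIF target the AMLE points lie above the DMSO points, while those of 8 of the 15 enzymes overlap.

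Among transporters and flux regulators, Pfkfb3 moved most. It encodes the bifunctional enzyme that makes fructose 2,6-bisphosphate, the activator of phosphofructokinase. Pfkfb3 was at 139, 146 and 142 CPM in DMSO and 247, 260 and 322 CPM in AMLE, and rose 1.94-fold (0.96 ± 0.10, edgeR adjusted p = 3.7e-04). Its relative Pfkfb4 was not called (−0.08, 95% interval −0.22 to 0.05). Slc16a3 (MCT4), the lactate exporter of glycolytic cells, was at 200.05, 203 and 185 CPM in DMSO and 331, 269 and 349 CPM in AMLE. The groups did not overlap, and it rose 1.61-fold (0.69 ± 0.10, edgeR adjusted p = 0.0014). Slc2a1 (GLUT1), the basal glucose transporter, was at 232, 238 and 220 CPM in DMSO and 320, 260 and 332 CPM in AMLE, a 1.32-fold rise (0.40 ± 0.09, edgeR adjusted p = 0.011). Slc2a3 (GLUT3) overlapped between groups, with 49.7 to 73.6 CPM in DMSO and 54.1 to 86.4 in AMLE. It was not called in the unblocked fit (0.22, edgeR adjusted p = 0.42), but with the replicate number as a block its edgeR adjusted p was 0.014 (0.21).

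In the unblocked fit, 10 of the 15 tested glycolytic enzymes were not called. Where a step has several isoforms in the set, at most 1 of them was called in that fit. Phosphofructokinase, which commits sugar to glycolysis, has 3 isoforms here. The liver type Pfkl was at 158, 145 and 146 CPM in DMSO and 253, 208 and 251 CPM in AMLE. It rose without overlap, 1.59-fold (0.67 ± 0.08, edgeR adjusted p = 8.2e-04). The platelet type Pfkp (−0.15, 95% interval −0.34 to 0.04) and the muscle type Pfkm (0.13, −0.13 to 0.38) were not called, and Pfkp was called lower without DMSO replicate 1 (−0.23, edgeR adjusted p = 0.041).

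Of the hexokinases, which trap glucose in the cell, only Hk3 was called. It stood at 244, 235 and 201 CPM in DMSO and 177, 157 and 153 CPM in AMLE, so that every AMLE library was below every DMSO library (31.4% of all tested genes). Hk3 fell by 0.48 ± 0.09 on the log2 scale (edgeR adjusted p = 0.0038). Hk1 was at 0.07 (95% interval −0.09 to 0.23). Hk2 was at 0.16 (interval 0.00 to 0.32, edgeR adjusted p = 0.088) and was called with a replicate block (edgeR adjusted p = 0.033).

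Of the enzymes that split and oxidise the sugar, Tpi1 (0.40 ± 0.08), Pgk1 (0.36 ± 0.05) and Aldoa (0.25 ± 0.07) rose. Aldoa was not called when DMSO replicate 1, 2 or 3 or AMLE replicate 1 was left out (edgeR adjusted p = 0.0585 to 0.0676). Gapdh, often used as a reference gene, was the enzyme with the most reads, at 2759, 2755 and 2507 CPM in DMSO and 3070, 2764 and 3049 CPM in AMLE. The groups touched without overlapping, and Gapdh was not called (0.15, 95% interval −0.02 to 0.32, edgeR adjusted p = 0.14). Aldoc, a second aldolase, had a wide interval (0.44, −0.09 to 0.96). The replicate block made it a call (0.41, edgeR adjusted p = 0.0067). So did leaving out AMLE replicate 2 (0.62, edgeR adjusted p = 0.049) or the pair of libraries numbered 3 (0.35, edgeR adjusted p = 0.018).

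Of the tested members at the last steps, none was called. On the log2 scale Pgam1 was at 0.17 (95% interval 0.00 to 0.34), the pyruvate kinase Pkm at 0.09 (−0.12 to 0.30) and lactate dehydrogenase Ldha at 0.02 (−0.17 to 0.22). Pgam1 was called higher without AMLE replicate 2 (0.25, edgeR adjusted p = 0.010). Gpi1, the isomerase of glucose 6-phosphate, was at 0.09 (−0.10 to 0.29).  Eno1 fell under the low-count filter, with 5 reads in all. It had a peak at its start in all ATAC libraries and has near-identical copies elsewhere in the genome, so its count is not interpreted. Aldoa, Gapdh, Pgk1, Pgam1, Tpi1, Ldha and Pkm also have copies, and their counts are uncertain to that extent. Another enolase gene, Eno2, stands outside the set and was picked after its values were seen. Eno2 rose from 9.07 ± 1.70 to 14.6 ± 1.03 CPM (SD, n = 3), by 0.69 ± 0.14 on the log2 scale (edgeR adjusted p = 0.0051).

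Hif1a had 224, 220 and 213 CPM in DMSO and 229, 221 and 245 CPM in AMLE. The groups overlapped and the change was 0.08 on the log2 scale (95% interval −0.04 to 0.21, edgeR adjusted p = 0.24), with adjusted p between 0.12 and 0.63 over 12 alternatives.

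The summed level of the 16 enzymes was 10946, 10990 and 10459 CPM in DMSO and 12472, 10928 and 12509 CPM in AMLE, so that AMLE replicate 2 lay within the DMSO range. Eno1, whose count is not interpreted, adds only 5 reads over all libraries to this sum, which is also the base of the share below. The 11 HIF targets summed to 649, 628 and 602 CPM in DMSO and 1045, 949 and 1058 CPM in AMLE, with no overlap. As a share of the enzyme sum in the same library, which does not depend on the library's scaling, the HIF targets made 5.93, 5.71 and 5.76% in DMSO and 8.38, 8.68 and 8.46% in AMLE. AMLE replicate 2 was the lowest of the AMLE libraries for 25 of the 32 tested members, beside 35.8% of all tested genes. By the median over genes of the log2 ratio to the DMSO mean, the HIF targets stood at 0.60, 0.56 and 0.86 in AMLE replicates 1 to 3 and the enzymes at 0.20, 0.02 and 0.19. No p-value is given for these sums and medians, since the genes were chosen with earlier results known.

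**Figure D3:**
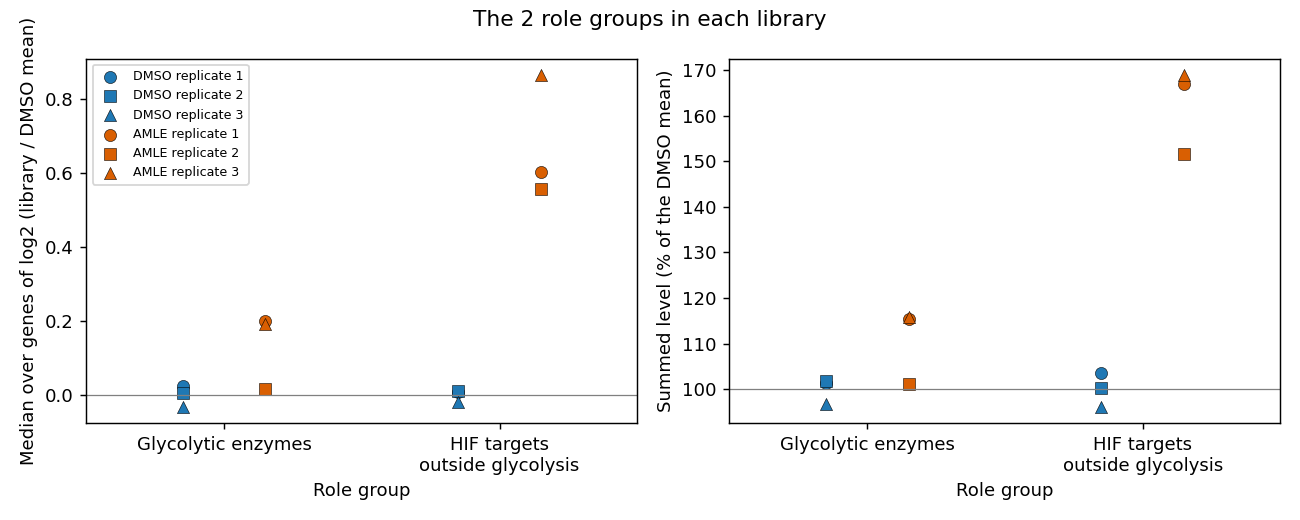
Left, the median over genes of the log2 ratio to the DMSO mean; right, the summed CPM as a percentage of the DMSO mean, for the 2 role groups in each of the 6 RNA libraries (DMSO blue, AMLE orange). The HIF targets part the groups in both panels, while AMLE replicate 2 lies at 0.02 for the enzymes.

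Genes around the set were read from 2 fixed lists. In the list of other glycolysis and pyruvate genes, 7 of 31 tested genes rose and 14 fell, with a median of −0.17, beside 23.0% higher and 25.6% lower among all tested genes. The count of higher genes was near that share. The 5 listed subunit genes of the pyruvate dehydrogenase complex, which feeds pyruvate into the citric acid cycle, all fell, and were singled out after their values were seen. Dlat fell by 0.60, Pdhx by 0.54, Pdha1 by 0.46, Dld by 0.40 and Pdhb by 0.30 on the log2 scale. By the naming rule, Slc16a7 (−1.28 ± 0.16) and Slc16a1 (−1.26 ± 0.09), the monocarboxylate transporters MCT2 and MCT1, fell most, followed by Ldhb (−0.98), the lactate dehydrogenase subunit of oxidative tissues, and Adpgk (−0.87), an ADP-dependent glucokinase. Eno3, the muscle enolase, rose (0.72), a call lost without any 1 of DMSO replicates 1, 2 and 3 and AMLE replicates 1 and 2 (edgeR adjusted p = 0.050 to 0.10) and with no low-count filter (edgeR adjusted p = 0.080). Its log2 fold change was 0.51 to 0.83 in those fits. Ldhb was not called without AMLE replicate 1 (0.053). The count of 7 higher genes was 3 without DMSO replicates 1 and 3 and AMLE replicates 1 and 2, and 4 without DMSO replicate 2.

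In the list of other HIF pathway genes and targets, 17 of 38 tested genes rose and 2 fell, with a median of 0.29, beside the same 23.0% and 25.6% of all tested genes. Among those named by rule, Ankrd37, a hypoxia-inducible ankyrin repeat gene, rose 2.66-fold (1.41 ± 0.11), from 5.97 ± 0.0852 to 15.9 ± 1.97 CPM. Plod2, a collagen lysyl hydroxylase (1.36), Bhlhe41, a circadian repressor (1.25), and Rora, a nuclear receptor (0.98), also rose, and Ppfia4 fell (−1.64). Bhlhe40, the repressor related to Bhlhe41, rose from 429 ± 22.1 to 818 ± 36.5 CPM (0.93 ± 0.06), and the lipid droplet gene Hilpda rose by 0.97. Both were chosen after their values were seen, as were the components of HIF control. Among these, Vhl, which marks hydroxylated HIF for degradation, rose 1.77-fold (0.83 ± 0.11, edgeR adjusted p = 0.0011). The partner subunit Arnt (−0.03), the alpha subunit Epas1 (−0.19), Egln2 (−0.12) and the asparaginyl hydroxylase Hif1an (0.11) were not called, and Hif1an was called without AMLE replicate 3 (0.16, edgeR adjusted p = 0.036). The blocked fit called 6 genes of this list lower. Leaving out AMLE replicate 3 gave 4 lower genes, leaving out the pair numbered 3 gave 5, and leaving out DMSO replicate 1, DMSO replicate 2 or AMLE replicate 2 gave 1 each.

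**Figure D4:**
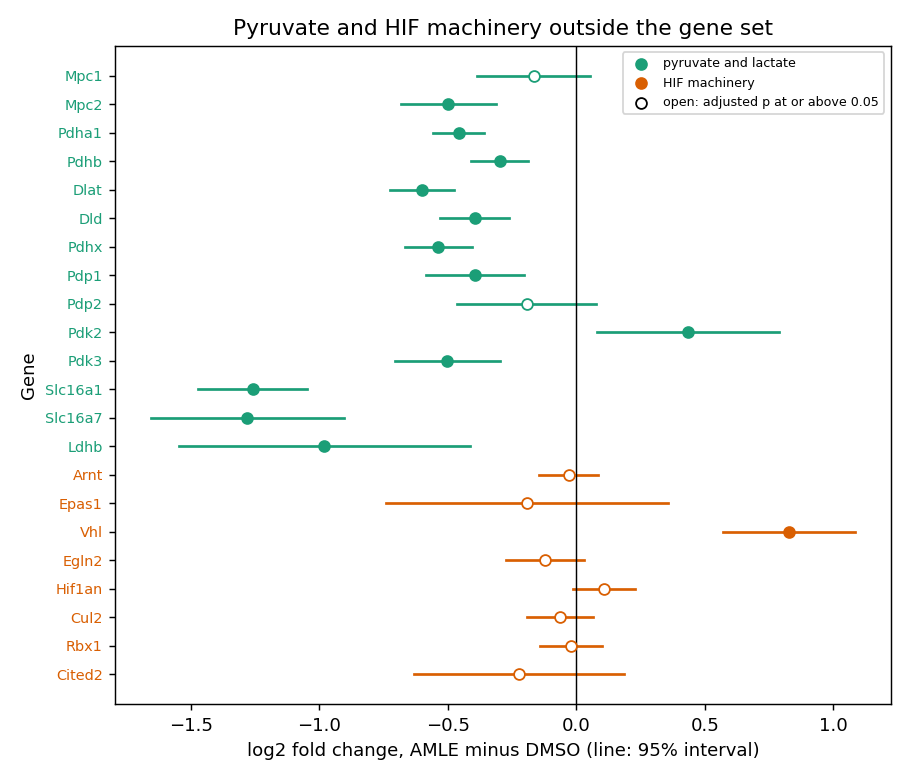
Log2 fold change (AMLE minus DMSO) with 95% intervals for genes of pyruvate and lactate handling (green) and of HIF control (orange) that stand outside the 33 genes, chosen after their values were seen; filled symbols have an adjusted p below 0.05. The pyruvate dehydrogenase subunits lie between −0.60 and −0.30, and Vhl at 0.83.

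Open chromatin at the gene starts was present in both groups. Peaks are those the authors called per library, and a member was counted when a peak overlapped the 1 kb on either side of an annotated start. All 4 libraries had such a peak in 26 of the 30 members with a start in the table, beside 40.4% of all 18096 genes with a start and 67.7% of the genes tested for expression. Both DMSO libraries had one in 27 members (43.5% of all genes, 72.5% of those tested for expression). Both AMLE libraries had one in 26 (41.6% and 69.6%). No member had a peak at the start in both libraries of 1 group and neither of the other. That share was 0.857% of all genes and 1.33% of those tested for expression for DMSO, and 0.160% and 0.230% for AMLE. Without AMLE replicate 2 the count for DMSO was 1. No test of these peak calls between the groups was made. Pfkl and Ak4 had no peak at any start, nor any within 10 kb of the gene, in the 4 lists, and both rose in RNA. A start peak was missing from all 4 lists for 51.1% of all genes and 19.9% of those tested for expression. At Gpi1 the peak was not called in AMLE replicate 1, and at Aldoc it was called in DMSO replicate 2 and AMLE replicate 1.

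The authors' fold enrichment of the start peak of Ddit4 was 15.9 and 17.8 in DMSO and 14.7 and 13.9 in AMLE. For Bnip3 it was 14.7 and 14.7 in DMSO and 13.3 and 14.6 in AMLE, for P4ha1 18.2 and 17.6 against 16.3 and 19.5, and for Egln3 9.22 and 11.5 against 11.4 and 9.92. These are values for each peak within its own list and were not compared between libraries. The printed promoters of Ddit4, Bnip3, Egln3, P4ha1 and Ldha all overlapped a peak in each of the 4 libraries.

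From 10 kb before to 10 kb after the 33 genes there were 79 distinct peak regions, of which 48 were in all 4 libraries (60.8%, beside 49.0% of all 24542 regions). Near HIF targets, 14 of 15 regions were in all libraries, and near glycolytic enzymes 20 of 37. Regions in both DMSO and no AMLE library numbered 4 (5.06%, near the 5.95% of all regions), and there was 0 in both AMLE and no DMSO library (0.460% of all regions). Leaving out any 1 library, so that fewer lists must share a region, gave 7 to 11 of the first kind and 0 to 4 of the second. The other 27 had mixed patterns (44.6% of all regions). The 4 lay in Slc16a3 (chromosome 11, 120957742 to 120958163), in Bnip3l (chromosome 14, 66990778 to 66991385), in Slc2a3 (chromosome 6, 122742287 to 122742869) and beyond the end of Pkm (chromosome 9, 59679985 to 59680628). Of these genes, Slc16a3 and Bnip3l were higher in AMLE RNA. The AMLE libraries had fewer distinct peaks in all, 15805 and 15597 against 18460 and 19225, and a region missing from a list may lie under its threshold.

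**Figure D5:**
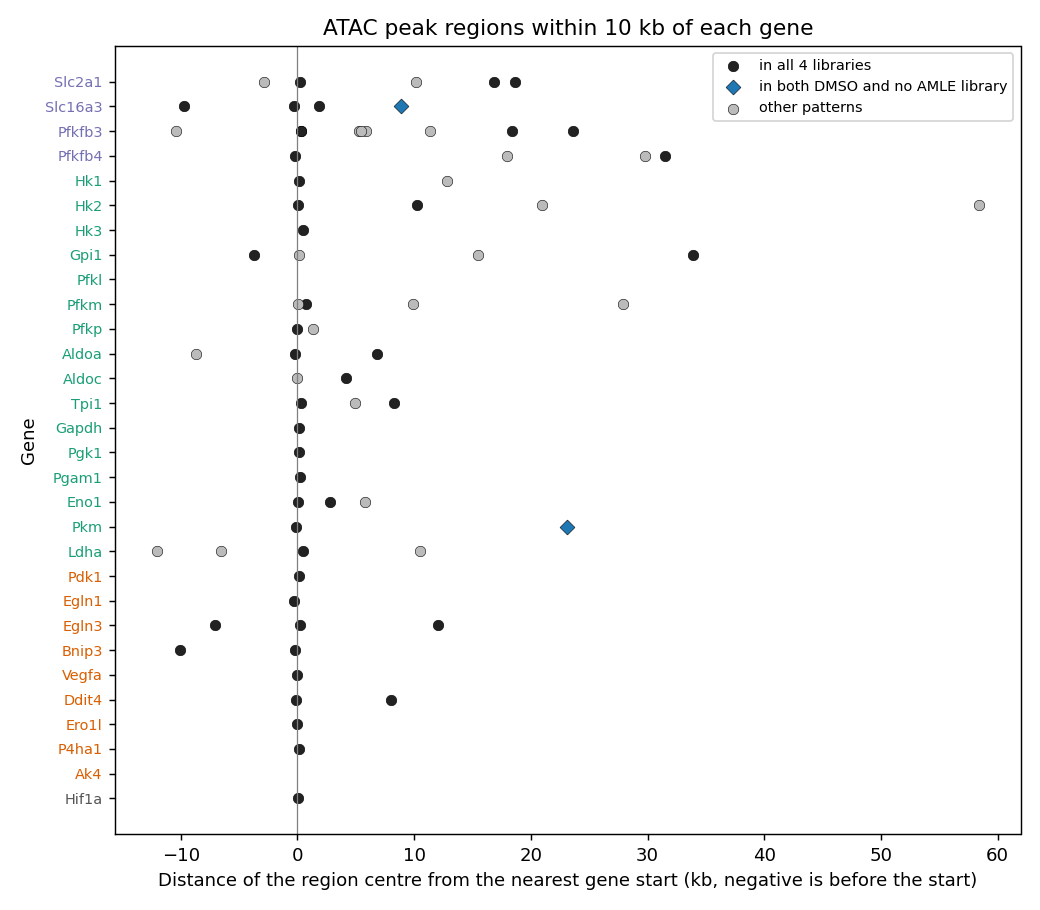
Distance in kb of each peak region's centre from the nearest start of the gene, for regions within 10 kb of the 30 genes with a start in the table; black regions were called in all 4 libraries, blue in both DMSO and no AMLE library, and grey in other patterns. Black regions sit at the start of most genes, and the rows of Pfkl and Ak4 are empty.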

How the data were processed

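The authors deposited raw read counts per gene symbol for 6 RNA libraries and, per ATAC library, a peak list giving each summit a q-value as −log10 q and its fold over background, a ratio. RNA libraries were stranded and poly(A)-selected, per the labels' protocols; the submitters' processing notes name STAR 2.7.11b, MACS3 3.0.0a7 and mm10, without roles. Neither the counting tool nor its strand setting is given in the sources used here. Overlapping genes and a gene and its antisense partner may therefore share reads. Groups and replicate numbers come from titles.

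Counts were tested with edgeR 4.0.16 (R 4.3.3): TMM factors, default low-count filter (minimum count 10), robust quasi-likelihood F test, two-sided, Benjamini-Hochberg over 13075 genes. Each standard error is the size of the log2 fold change divided by √F. The script was tested on simulated data. CPM uses effective library sizes. No gene lengths were used, so the most abundant gene of a group is the one with the highest CPM, without correction for length. Alternatives were DESeq2 1.42.0, RLE factors, limma-voom 3.58.1, no filter, a replicate block, and libraries left out. Same-numbered libraries of the 2 groups deviated together from their group means (correlations 0.29, 0.28 and 0.43 for numbers 1 to 3). The labels state no pairing, so the main fit had none. Pairing by number entered only through the replicate block, as an alternative. All 33 members matched RefSeq (GRCm38.p6), Ero1l by its older symbol, and 30 had a start.

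Members, lists and tests were chosen with earlier results of these data known. Values by library are given for the 12 members with the largest absolute change, Hif1a, Slc2a1, Hk3 and the most abundant member per role. Of each other list, the 5 called genes with the largest change and a mean CPM of at least 1 are named. Of the dendritic cell, macrophage and granulocyte markers, the most abundant gene is named. The other marker genes in the text were chosen after their values were seen.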

Additional observations from a re-analysis of the deposited data

How the results depend on the processing

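Of the 32 tested members, 17 of the 19 called ones kept their direction and call in all 12 alternatives, among them 10 of the 11 HIF targets; Aldoa and Bnip3l did not. The number of members higher was 16 to 21, of enzymes higher 3 to 6 and of HIF targets higher 10 to 11. The HIF median minus the enzyme median, 0.51, lay between 0.44 and 0.56. Leaving out each library in turn gave 1 to 2 members and 1 to 2 enzymes lower, the second being Pfkp. For Ldha (0.02), which was not called, the range was −0.030 to 0.10, with values below 0 without DMSO replicate 1 and without AMLE replicate 3. Hk1 was −0.0033 without both libraries numbered 3. Arnt ranged from −0.052 to 0.00043.

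In the list of other glycolysis and pyruvate genes 3 to 6 were higher in these fits, and in the other HIF list 1 to 4 were lower, with medians of 0.21 to 0.30. Without both libraries numbered 3, that list had 5 lower and a median of 0.18, and with a replicate block 6 lower. Beside the calls of Slc2a3, Hk2 and Aldoc, the block changed no member's call. The cause of these shifts was not tested.

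For ATAC, leaving out each library gave 0 to 1 members with a start peak in DMSO lists only. Near members it gave 7 to 11 regions in DMSO lists only and 0 to 4 in AMLE lists only, where fewer libraries must share a region. A 50 kb flank gave 87 regions in all 4 libraries, 9 in DMSO only and 2 in AMLE only, by its construction. When a library had to cover 50% of a region, 1 was in AMLE only. Peak lists hold no read depth, so a region absent from a list was not shown to be closed.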
